A study of Homo sapiens with 20 samples.

Results

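The RNA-editing enzyme gene *ADAR* was followed together with its paralogs *ADARB1* and *ADARB2* in RNA-seq libraries of lung cancer cell lines. The members were found by matching the Ensembl identifiers of the count files to these 3 symbols, and they are 3 of the 58233 genes in the files. *ADAR* and *ADARB1* had enough reads to be tested, and *ADARB2* did not. The questions were how much of each mRNA the lines held, how much *ADAR* mRNA was lost with each sgRNA, how IFN-β acted on it, and whether a paralog rose where *ADAR* fell.

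The series has 20 libraries, 2 for each of 10 conditions. HCC366 (lung adenosquamous carcinoma), NCI-H1650 (lung adenocarcinoma) and NCI-H196 (a small cell lung cancer of the variant type) are lines that the study calls ADAR1-dependent, and their RNA was taken 5 days after transduction, without treatment. A549 (lung adenocarcinoma) is not ADAR1-dependent, and its cells received vehicle (sterile water) or IFN-β at 10 ng/mL for 24 h. In all 4 lines the cells carried a lentivirus that co-expresses Cas9 and an sgRNA, directed against *GFP* in the controls and against *ADAR* in the KO libraries. Each condition was sequenced once with sg1 and once with sg2. These served as replicates, so errors and p-values measure the spread between sgRNAs, and nothing states that they come from separate cultures.

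ADAR1, the product of *ADAR*, deaminates adenosine to inosine in double-stranded RNA, and inosine is read as guanosine. Edited duplexes are poorer ligands for the cytoplasmic sensors MDA5 and PKR, which is the best known role of ADAR1 in human cells. ADAR1 is made as a shorter nuclear form, p110, from constitutive start sites and as a longer form, p150, from a start site that interferon induces. ADAR2, the product of *ADARB1*, edits codons of neuronal receptor mRNAs among others, and ADAR3, the product of *ADARB2*, is found mainly in brain and has no known deaminase activity.

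On GRCh37, *ADAR* (ENSG00000160710) spans chr1:154554171-154600489 on the minus strand and has 33 annotated transcripts. *ADARB1* (ENSG00000197381) spans chr21:46493768-46646475 on the plus strand with 15 transcripts, and *ADARB2* (ENSG00000185736) spans chr10:1223253-1779719 on the minus strand with 7. The counts hold 1 value per gene and do not separate p150 from p110. Transcript ADAR-202 encodes a protein of 1226 residues, the length of p150, and starts at position 154580662, whereas ADAR-201 encodes 931 residues, the length of p110, and starts at position 154600444. The 250 bases before each start, and before the start of ADARB1-201 at position 46494495, were searched on both strands for GAAANNGAAA, the core of the element through which interferon-activated factors bind DNA. The last 30 bases before each start are printed because *ADAR* and *ADARB1* differed in their response to IFN-β. They are GRCh37 sequence, 5′ to 3′ on the strand of the gene, with the motif in capitals.
ADAR-202 (chr1:154580663-154580692, minus strand): aaggctttccgaggaaacGAAAGCGAAAtt
ADAR-201 (chr1:154600445-154600474, minus strand): atgatgtcaccaatctgcgaccagaccatt
ADARB1-201 (chr21:46494465-46494494, plus strand): ggagggggcggagccgccggcggcggggct
The window of ADAR-202 held 1 match, which begins 12 bases before the start, and the windows of ADAR-201 and ADARB1-201 held 0. Of the 19894 protein-coding genes with a window of this length, 2.84% held the motif, and of the 12238 of them tested in A549, 2.39% did. Among 625 such genes that rose with IFN-β in A549 cells with *GFP* sgRNAs, *ADAR* included, the share was 14.9%. A match is a string of letters and was not tested as a binding site.

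Reads on genes ranged from 62679 (NCI-H196 GFP sg2) to 19520189 per library, with a median of 6411279. Of these libraries 2 stand apart, NCI-H196 GFP sg2 by its depth and HCC366 ADAR sg2 by its share of alignments that were not unique, 85.6% against 22.5% to 59.1% in the others, and results that rest on them are given with and without them. The summed level of 5 epithelial markers was 1748 to 5664 CPM (the count relative to library size, scaled by TMM within the line) in A549, HCC366 and NCI-H1650 and 58.6 to 72.2 CPM in NCI-H196. Of 5 neuroendocrine markers, 3 were at 0 in all NCI-H196 libraries, and the adenocarcinoma markers *NKX2-1* and *NAPSA* together reached at most 7.11 CPM in any line.

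*ADAR* was the most abundant member per kb of exon in every line, and its basal level was highest in HCC366. *ADARB1* was higher in HCC366 and A549 than in NCI-H1650 and NCI-H196. These basal levels come from the 8 libraries with *GFP* sgRNAs and no IFN-β, scaled by TMM over those 8, a scale that gives A549 higher values than its own. On it *ADAR* stood at 983 ± 219 CPM in HCC366, 660.3 ± 51.2 in NCI-H196, 655 ± 87.7 in NCI-H1650 and 565 ± 8.90 in A549 (mean ± SD, n = 2). *ADAR* was higher in HCC366 than in NCI-H1650 (log2 difference 0.59 ± 0.14 SE, adjusted p = 0.000169), NCI-H196 (0.63 ± 0.16, adjusted p = 0.000444) and A549 (0.81 ± 0.14, adjusted p = 2.17e-07; edgeR's quasi-likelihood test, Benjamini-Hochberg over 15964 genes). The other 3 lines did not pass against each other, with log2 differences of 0.03 to 0.21. Without HCC366 GFP sg2, the difference in *ADAR* from NCI-H1650 was 0.29 (adjusted p = 0.136) and that from NCI-H196 0.40 (adjusted p = 0.0548). Without NCI-H196 GFP sg1, which leaves the shallow control, the latter was 0.52 (adjusted p = 0.149).

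The basal order of *ADARB1* was another. It stood at 46.3 ± 10.2 CPM in HCC366, 42.2 ± 3.13 in A549, 18.7 ± 2.58 in NCI-H1650, and at 15.4 and 0 CPM in the NCI-H196 libraries, where the 0 is the shallow library and 3 reads there equal 44 CPM on the within-line scale. HCC366 and A549 did not differ beyond their spread (log2 difference 0.07, 95% CI -0.28 to 0.42), and neither did NCI-H1650 and NCI-H196 (0.30, -0.15 to 0.74). Both of the former were higher than both of the latter: HCC366 by 1.24 ± 0.20 over NCI-H1650 (adjusted p = 1.94e-08) and by 1.54 ± 0.23 over NCI-H196 (adjusted p = 4.77e-10), while NCI-H1650 was below A549 (log2 difference -1.17 ± 0.18, adjusted p = 6.73e-10). NCI-H196 was below A549 as well (-1.47 ± 0.20, adjusted p = 2.74e-11), and without its shallow library the log2 difference was -1.48 (adjusted p = 2.48e-11). Most genes differed between lines: 56.7% of all genes tested were called between HCC366 and NCI-H1650, 57.3% between HCC366 and NCI-H196, 64.9% between HCC366 and A549, 61.7% between NCI-H1650 and NCI-H196, 68.3% between NCI-H1650 and A549 and 70.5% between NCI-H196 and A549. With DESeq2 the *ADARB1* differences HCC366 minus NCI-H1650 and NCI-H1650 minus A549 no longer passed (adjusted p = 0.0661 and 0.116). A549 had vehicle and the other lines no treatment, which cannot be told apart from the line.

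**Figure D1:**
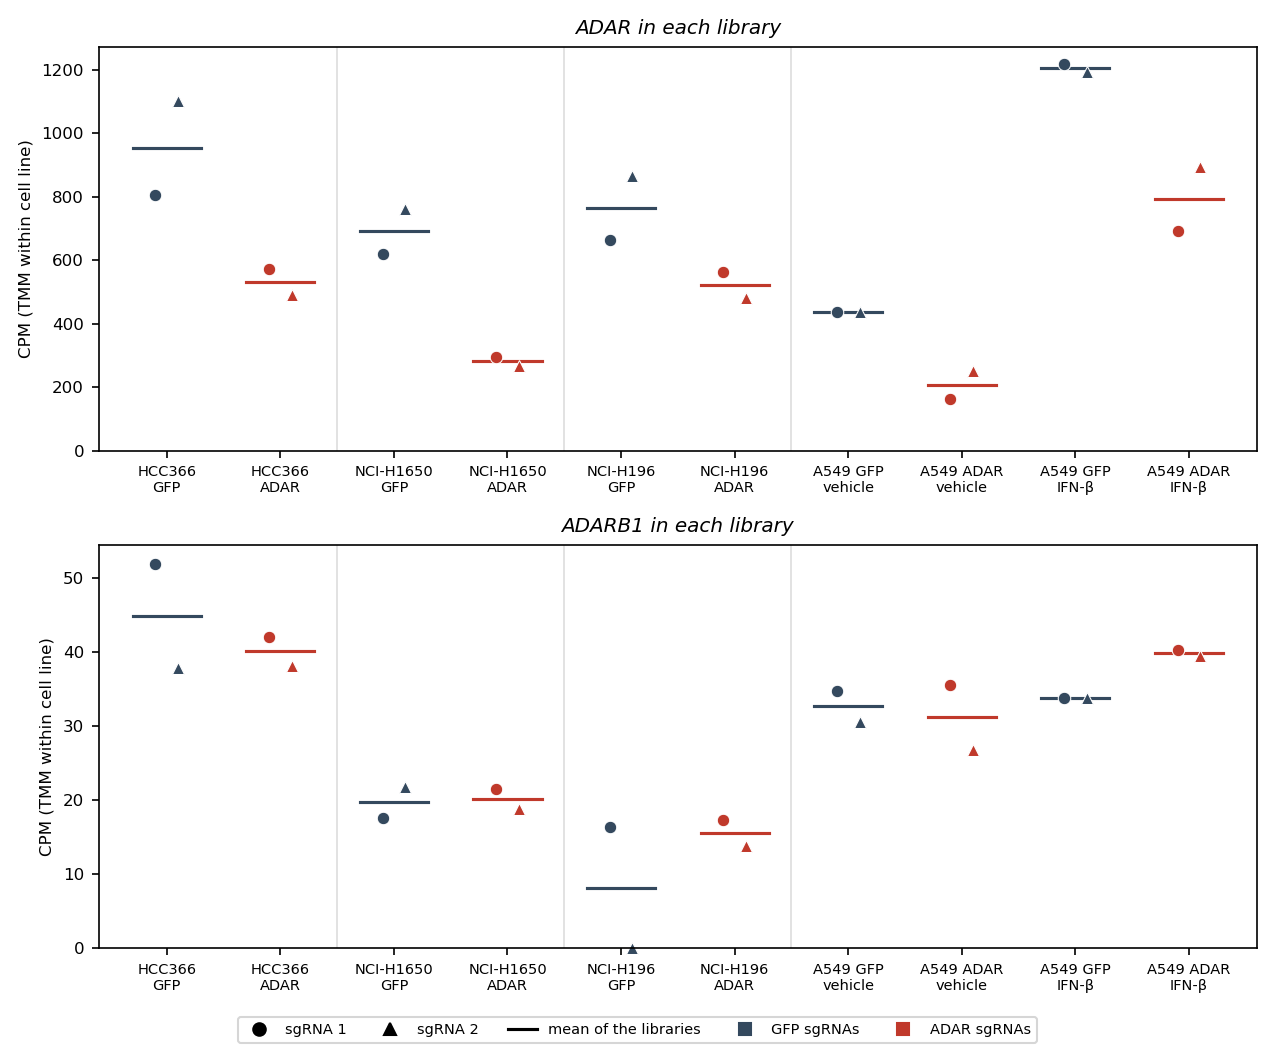
*ADAR* (top) and *ADARB1* (bottom) in CPM, scaled by TMM within each cell line, in the 20 libraries over the 10 conditions; circles are sg1, triangles sg2, lines the mean of the libraries, dark colour *GFP* and red *ADAR* sgRNAs. In all 5 settings both *ADAR* KO libraries lie below both *GFP* libraries for *ADAR*, while for *ADARB1* the groups overlap in every setting except A549 with IFN-β. The share of all genes separated in this way is not given, so the separation is a description.

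In NCI-H1650, *ADAR* was at 621 CPM with GFP sg1 and 760.5 CPM with GFP sg2. It was at 296 CPM with ADAR sg1 and 268 CPM with ADAR sg2, so 42.9% and 38.8% of the *GFP* mean remained. *ADAR* fell by 1.29 ± 0.11 on the log2 scale (95% CI -1.50 to -1.08, adjusted p = 6.63e-14), the 7th smallest p of 14530 genes. Of all genes tested, 8.6% were called.

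In HCC366, *ADAR* was at 804 and 1101 CPM with GFP sg1 and sg2. With ADAR sg1 and sg2 it was at 571 and 490.2 CPM, with 59.97% and 51.5% of the *GFP* mean remaining. The log2 difference was -0.84 ± 0.31 (95% CI -1.54 to -0.15) and did not pass the threshold over all genes (adjusted p = 0.208), in a line where 1.25% of genes were called. In the 4 fits without 1 library it was -0.72 without ADAR sg2, -0.98 without ADAR sg1, -1.08 without GFP sg1 and -0.60 without GFP sg2. Each of these fits leaves 1 library in a group and takes the spread from the other group alone, so only the size is given. Their side of the threshold varied with the library left out, so the missing call in HCC366 depends on single libraries.

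In NCI-H196, *ADAR* was at 664 CPM with GFP sg1 and at 865 CPM with GFP sg2, the second from 59 reads with a counting interval of 658 to 1116 CPM. With ADAR sg1 and sg2 it was at 564 and 482 CPM, or 73.9% and 63.1% of the *GFP* mean. That mean, 764 CPM, includes the library with 59 reads. GFP sg1 alone, at 664 CPM, was below it, so the shares that remained against GFP sg1 were larger. *ADAR* fell by 0.41 ± 0.11 on the log2 scale (95% CI -0.62 to -0.20, adjusted p = 0.00165), where 17.8% of genes were called. Without NCI-H196 GFP sg2, *ADAR* fell by 0.39, and without GFP sg1 the log2 difference was -0.75. These fits leave 1 control library, so only the size is given. The call did not hold with DESeq2 (adjusted p = 0.999) or with the sgRNA number as a block (0.518). It did not hold without ADAR sg1, or without ADAR sg2, either. With GC and length offsets the log2 difference was -1.05 (adjusted p = 0.245).

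In A549 with vehicle, *ADAR* was at 436 and 437 CPM with GFP sg1 and sg2, the closest controls of any condition. With ADAR sg1 it was at 161 CPM and with ADAR sg2 at 250.1 CPM, which left 36.9% and 57.3% of the *GFP* mean. *ADAR* fell by 1.08 ± 0.13 on the log2 scale (95% CI -1.36 to -0.81, adjusted p = 9.98e-05) and had the smallest p of 15449 genes in a comparison that called 0.123% of them. With DESeq2 the log2 difference was -1.08 and did not pass (adjusted p = 0.129).

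In A549 with IFN-β, *ADAR* was at 1219 and 1193 CPM with GFP sg1 and sg2 and at 691 and 895 CPM with ADAR sg1 and sg2. The remaining share was 57.3% and 74.2%, higher than with vehicle for each sgRNA. *ADAR* fell by 0.60 ± 0.13 on the log2 scale (95% CI -0.87 to -0.34, adjusted p = 0.00148), with 17% of genes called, and with DESeq2 the log2 difference was -0.59 (adjusted p = 0.0959).

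In a joint fit of HCC366, NCI-H1650 and NCI-H196 (12 libraries, with the line as a covariate), *ADAR* fell by 0.91 ± 0.15 on the log2 scale (95% CI -1.22 to -0.60, adjusted p = 0.00139), where 5.3% of genes were called. All 12 fits that left out 1 of these libraries kept the call. The loss was then compared between lines, with vehicle-treated A549 as the fourth line, in 6 pairs. No pair passed for *ADAR* or *ADARB1*. Few genes passed in the pairs without HCC366, namely 0.00565% of those tested for NCI-H1650 against NCI-H196, 0.0226% for NCI-H1650 against A549 and 0.0396% for NCI-H196 against A549, and HCC366 gave 2.04%, 2.07% and 7.93% against NCI-H1650, NCI-H196 and A549. The largest difference was NCI-H1650 minus NCI-H196, -0.86 (95% CI -1.49 to -0.22, adjusted p = 1.00), followed by NCI-H196 minus A549, 0.65 (95% CI 0.02 to 1.29, adjusted p = 0.830). Without HCC366 ADAR sg2 these were -0.86 and 0.68, and both passed. Without NCI-H196 GFP sg2 they were -0.87 and 0.66, and neither passed. Without these libraries together, a choice made after seeing the data, they were -0.87 and 0.66, and both passed. HCC366 is in neither pair, but the fit estimates the spread over all lines, so these calls depend on a library outside the pairs. The fits leave 1 library in a group, so only the sizes are given.

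The sgRNAs were compared with each other over the 10 ADAR libraries. The vehicle and IFN-β libraries of A549 with the same sgRNA were counted as separate conditions. ADAR sg1 left more *ADAR* mRNA than sg2 in HCC366, NCI-H1650 and NCI-H196, and less in A549 with either treatment. The log2 difference of sg2 from sg1 over all conditions was 0.10 (95% CI -0.20 to 0.41, adjusted p = 1.00) for *ADAR* and -0.20 (95% CI -0.51 to 0.10, adjusted p = 1.00) for *ADARB1*. Over all 18446 genes, edgeR and DESeq2 each called 0 (0%), 366 had an unadjusted p under 0.05 in edgeR, and edgeR called 44 without HCC366 ADAR sg2. An indel in a coding exon need not remove the mRNA, so these shares are of mRNA and not of protein, and in a mixed population fewer cells with the mRNA and less mRNA per cell cannot be told apart.

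**Figure D2:**
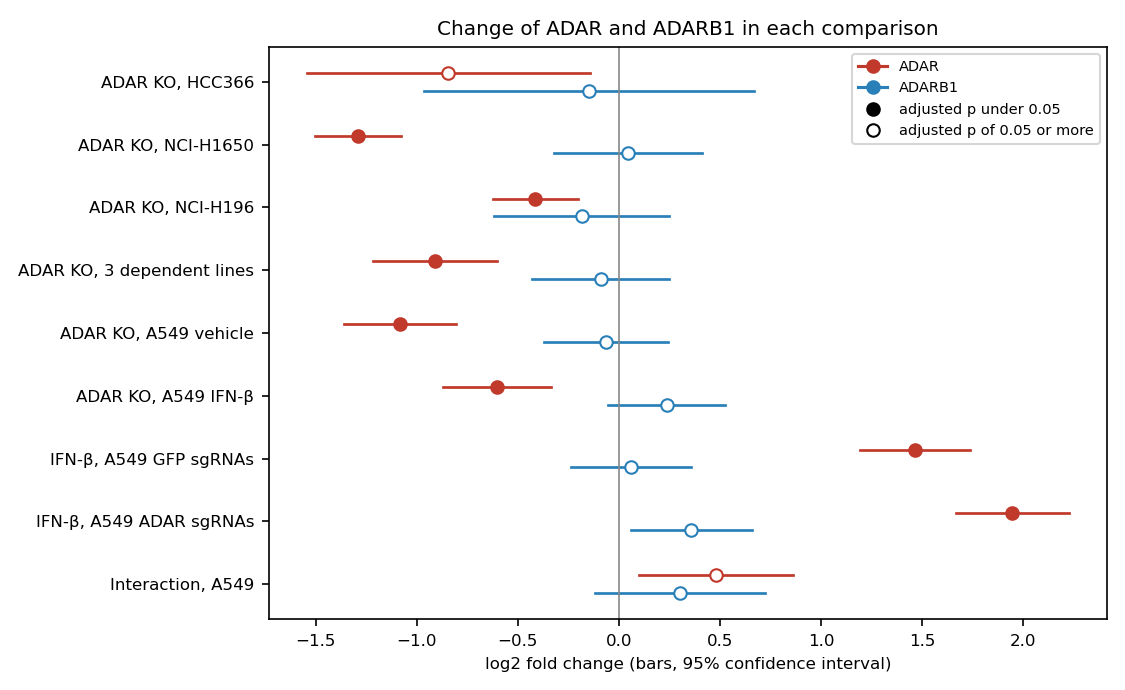
Log2 fold changes of *ADAR* (red) and *ADARB1* (blue) with 95% confidence intervals (horizontal axis) in 9 comparisons (vertical axis), from edgeR; filled points have an adjusted p under 0.05. *ADAR* is below 0 in every KO comparison and above 0 with IFN-β, and every *ADARB1* point is open.

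*ADARB1* did not pass in any of the KO comparisons. In HCC366 it was at 51.9 and 37.8 CPM with GFP sg1 and sg2 and at 42.0 and 38.2 CPM with ADAR sg1 and sg2, which lie within the range of the controls. The log2 difference was -0.15 (95% CI -0.97 to 0.67, adjusted p = 0.844). In NCI-H1650 it was at 17.6 and 21.7 CPM with the *GFP* sgRNAs and at 21.5 and 18.8 CPM with the *ADAR* sgRNAs, a log2 difference of 0.04 (95% CI -0.32 to 0.41, adjusted p = 0.932). Here the loss of *ADAR* mRNA was the largest, and the KO values of *ADARB1* lay between the controls.

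In NCI-H196, *ADARB1* was at 16.4 CPM with GFP sg1, 17.3 CPM with ADAR sg1 (17 reads) and 13.8 CPM with ADAR sg2, and GFP sg2 had 0 reads. The log2 difference was -0.18 (95% CI -0.62 to 0.25, adjusted p = 0.626), and without GFP sg2 it was -0.21 (adjusted p = 0.550). Over the 12 libraries of these 3 lines it was -0.09 (95% CI -0.43 to 0.25, adjusted p = 0.782). The upper ends of these intervals set how large a rise the libraries could have missed, and HCC366 has the widest.

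In A549 with vehicle, *ADARB1* was at 34.7 and 30.6 CPM with the *GFP* sgRNAs and at 35.6 and 26.7 CPM with the *ADAR* sgRNAs, a log2 difference of -0.06 (95% CI -0.37 to 0.24, adjusted p = 0.998). With IFN-β it was at 33.9 and 33.8 CPM with the *GFP* sgRNAs and at 40.3 and 39.4 CPM with the *ADAR* sgRNAs. Only here did the groups not overlap, which is a description, because the share of all genes without overlap is not given. The log2 difference of 0.24 did not pass (95% CI -0.05 to 0.53, adjusted p = 0.271), in a comparison that called 17% of genes.

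*ADARB2* was at or near the limit of detection in every condition. It had 0 reads in 15 of the 20 libraries and 1 read in each of 5 libraries, namely A549 ADAR sg1 with IFN-β, NCI-H196 ADAR sg2, NCI-H1650 GFP sg2 and both NCI-H1650 *ADAR* KO libraries. A count of 0 allows up to 3 reads (a one-sided limit), which is 0.156 CPM in the deepest library and 44 CPM in the shallowest, by counting error alone. In the 10 *ADAR* KO libraries the upper ends of the two-sided Poisson intervals of *ADARB2* were 0.192 to 3.74 CPM, all below the level of *ADARB1* in these libraries, and a smaller rise was not detectable at this depth.

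IFN-β raised *ADAR* in A549 cells with either target. With the *GFP* sgRNAs the mean went from 437 ± 0.573 to 1206 ± 18.3 CPM (SD, n = 2), and *ADAR* rose by 1.47 ± 0.13 on the log2 scale (95% CI 1.19 to 1.74, adjusted p = 6.81e-10). With the *ADAR* sgRNAs it went from 206 ± 62.8 to 793 ± 144 CPM and rose by 1.95 ± 0.14 (95% CI 1.67 to 2.23, adjusted p = 1.12e-12). These fits did not pair the vehicle and IFN-β libraries of the same sgRNA, and with a block for each sgRNA both calls were kept. IFN-β called 5.7% of genes with the *GFP* sgRNAs and 24.5% with the *ADAR* sgRNAs. By size, *ADAR* was the 339th largest rise of 15449 genes with the *GFP* sgRNAs. Both IFN-β-treated libraries with *ADAR* sgRNAs, at 691 and 895 CPM, were above both vehicle-treated controls, at 436 and 437 CPM.

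The rise of *ADAR* with the *ADAR* sgRNAs exceeded that with the *GFP* sgRNAs by 0.48 ± 0.19 on the log2 scale (95% CI 0.10 to 0.86), which did not pass the threshold (adjusted p = 0.145) in a test that called 5.05% of genes. Each sgRNA was used with vehicle and with IFN-β, a pairing that this fit leaves out. With a block for each sgRNA, which joins its vehicle and IFN-β libraries, the difference was 0.50 and passed (adjusted p = 0.0404). Of the 8 fits without 1 library, 2 passed, at 0.84 without ADAR sg2 with vehicle (adjusted p = 0.00361) and 0.66 without ADAR sg1 with IFN-β (adjusted p = 0.0196). The other 6 did not, the lowest being 0.21 without ADAR sg1 with vehicle (adjusted p = 0.653).

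*ADARB1* did not pass with IFN-β. With the *GFP* sgRNAs its log2 change was 0.06 (95% CI -0.24 to 0.36, adjusted p = 0.917). With the *ADAR* sgRNAs it was 0.36 (95% CI 0.06 to 0.66, adjusted p = 0.0730), and the difference between these was 0.30 (95% CI -0.12 to 0.72, adjusted p = 0.469). The change with the *ADAR* sgRNAs passed in 3 of the 8 fits without 1 library, with the highest value, 0.58, without ADAR sg1 with vehicle (adjusted p = 0.0303), and did not pass in 5, with the lowest, 0.17, without ADAR sg2 with vehicle (adjusted p = 0.619).

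**Figure D3:**
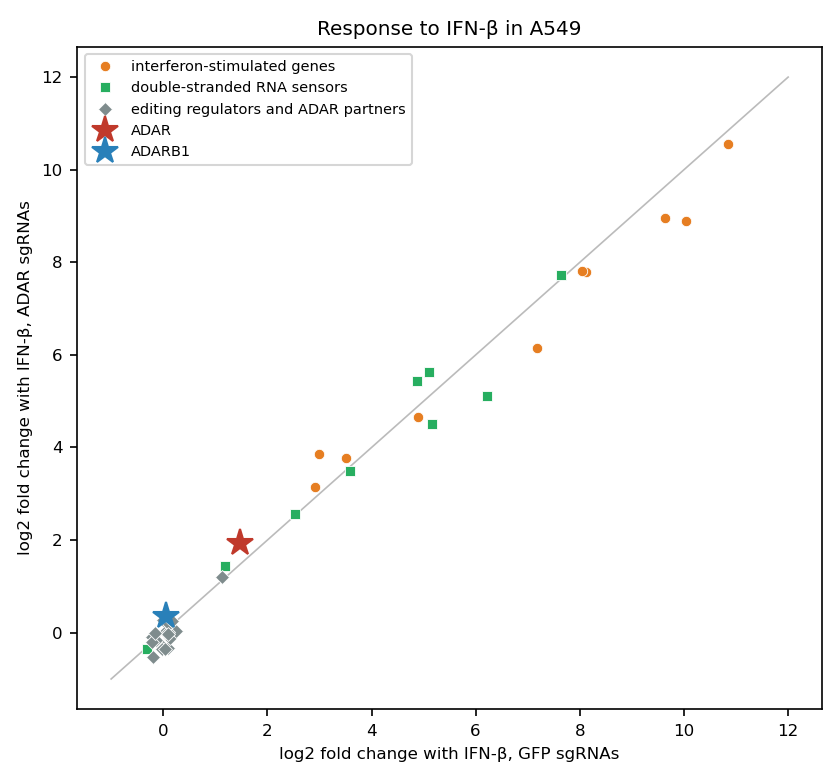
Log2 fold change with IFN-β in A549 cells with *GFP* sgRNAs (horizontal axis) and with *ADAR* sgRNAs (vertical axis) for *ADAR*, *ADARB1* and the genes of 3 lists; the line marks equal change, and a gene without reads in a whole condition is left out. *ADAR* lies at 1.47 and 1.95, below every interferon-stimulated gene plotted, and *ADARB1* at 0.06 and 0.36.

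The balance of the paralogs was taken as reads per kb of annotated exon, 12242 bases for *ADAR* and 10298 for *ADARB1*. In A549 the ratio of *ADAR* to *ADARB1* was 10.6 and 12 in the *GFP* libraries with vehicle, 30.3 and 29.7 in those with IFN-β, 3.81 and 7.87 in the KO libraries with vehicle and 14.4 and 19.1 in the KO libraries with IFN-β. *ADARB1* thus made up 20.8% of the summed reads per kb in A549 ADAR sg1 with vehicle, the highest share of any library. In NCI-H1650 the ratio went from 29.6 and 29.4 in the controls to 11.6 and 12 in the KO libraries. In HCC366 it was 13 and 24.5 in the controls and 11.4 and 10.8 in the KO libraries, and in NCI-H196 34.0 in the control with *ADARB1* reads and 27.5 and 29.4 in the KO libraries. *ADAR* stayed above *ADARB1* per kb in all 19 libraries that gave a ratio. These ratios are descriptions and depend on the length used. With the length of the longest coding transcript (6610 and 2518 bases) they were lower, at 2.64 to 15.4 for the condition means in place of 5.84 to 34.0. With that of the transcript annotated as canonical (6610 and 6902 bases) they were higher, for example 4.73 in A549 ADAR sg1 with vehicle and 42.3 in NCI-H196 GFP sg1.

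**Figure D4:**
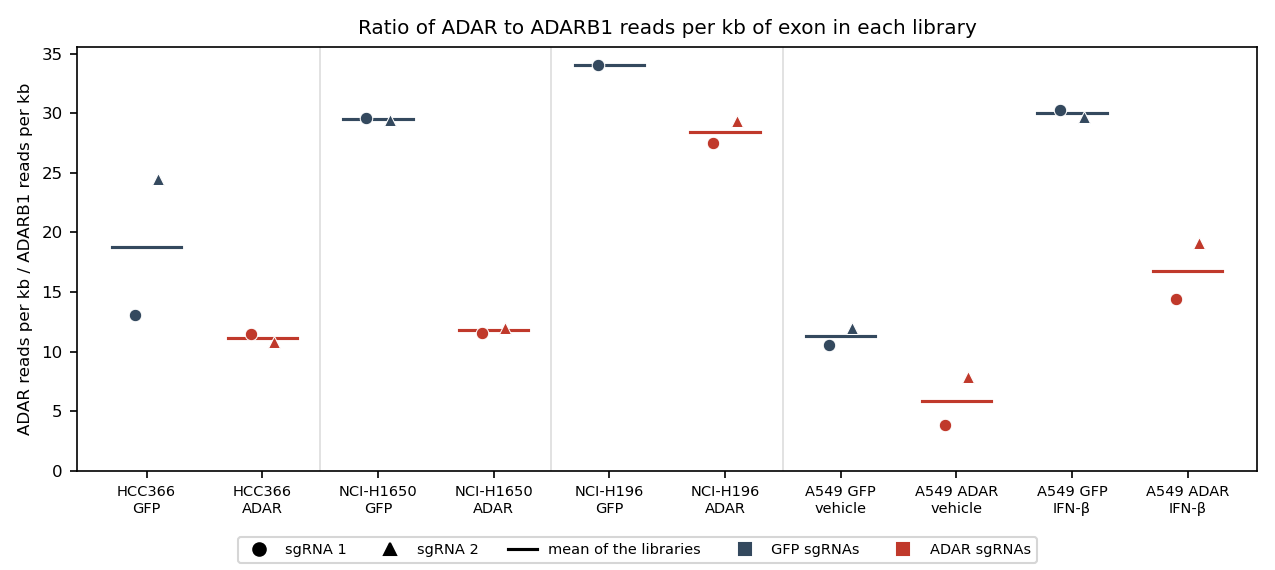
Ratio of *ADAR* to *ADARB1* reads per kb of exon in each library (vertical axis) over the 10 conditions; symbols as in the plot of CPM by library, and NCI-H196 GFP sg2 is missing because it had no *ADARB1* read. The lowest ratio is 3.81 (A549 ADAR sg1, vehicle) and the highest 34.0 (NCI-H196 GFP sg1).

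Relatives of the enzymes did not pass in any KO or IFN-β comparison. Of 5 relatives, the tRNA adenosine deaminases *ADAT1*, *ADAT2* and *ADAT3* were tested and the testis genes *ADAD1* and *ADAD2* had no reads. *ADAT3*, a subunit of the deaminase of the tRNA wobble position, had the largest value, 2.41 ± 0.72 in HCC366 (adjusted p = 0.150). It was at 6.20 and 2.86 CPM with GFP sg1 and sg2, 7.87 CPM with ADAR sg1 and 34.3 CPM with ADAR sg2, the library with many non-unique alignments. Without that library the value was 1.03 (adjusted p = 0.481), and the difference of the KO effect from vehicle-treated A549 went from 2.37 (adjusted p = 0.0389) to 0.89 (adjusted p = 0.662). Of 7 genes for binding or cleavage of inosine-containing RNA, none was called in any KO comparison. The symbol *MATR3* in this list has 2 identifiers in the files, so its counts are uncertain and its change is not given.

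Of 18 regulators and partners of ADAR proteins, all of which were tested, 0 changed with *ADAR* KO in HCC366 or vehicle-treated A549 by edgeR, and 0 had an unadjusted p under 0.05 there. In NCI-H1650, 2 fell, the microRNA-processing nuclease gene *DROSHA* (-0.35, adjusted p = 0.0244) and *FXR1* (-0.34, adjusted p = 0.0266), an RNA-binding relative of *FMR1*, beside 8.6% of all genes called. In NCI-H196, *ZFR* (0.50, adjusted p = 8.36e-05) was called higher, and *ELAVL1* (-0.44, adjusted p = 0.00109), *TNPO1* (-0.37, adjusted p = 0.00423), the importin that carries ADAR1 into the nucleus, and *DROSHA* (-0.32, adjusted p = 0.0131) were called lower, beside 17.8% of all genes called. These 4 calls rest on GFP sg1, the deeper control: they passed in 1 of 4 fits without 1 library, that without GFP sg2. Without GFP sg1, *ELAVL1* was at 0.70 and *DROSHA* at 0.79, and the mean CPM of the KO libraries was not below that of the controls for *ELAVL1* (96.0 and 94.2) or *DROSHA* (208 and 188). In A549 with IFN-β, *FXR2* (0.36, adjusted p = 0.0299), another relative of *FMR1*, rose. The medians of this list were -0.13, 0.00 and -0.04 in these comparisons, beside 0.01, 0.00 and -0.01 over all genes tested. With IFN-β, *FMR1*, which encodes an RNA-binding protein that associates with ADAR, rose by 1.13 with the *GFP* sgRNAs (adjusted p = 2.28e-08) and by 1.21 with the *ADAR* sgRNAs (adjusted p = 4.12e-09), and with the latter *ELAVL1* (-0.52) and *SRSF9* (-0.36) fell.

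Of the tested transcripts known to be edited, 0 were called by edgeR with *ADAR* KO in HCC366, NCI-H1650 and vehicle-treated A549, where 0, 1 and 0 had an unadjusted p under 0.05. In NCI-H196, 2 of 14 were called higher, *TMEM63B* (0.49, adjusted p = 0.00280) and *CDK13* (0.33, adjusted p = 0.0148), beside 17.8% of all genes called. Both calls passed in 1 of 4 fits without 1 library, that without GFP sg2, and the mean of *CDK13* was 173 CPM in either group. In A549 with IFN-β, 2 of 16 rose with *ADAR* KO, *AZIN1*, an antizyme inhibitor with a recoded site (0.82 ± 0.11, adjusted p = 1.95e-06), and *COG3*, a Golgi complex subunit (0.82 ± 0.16, adjusted p = 0.000357), while the list median was 0.04 and 17% of all genes were called. *CTSS*, a lysosomal protease edited in its transcript end, rose with IFN-β by 2.26 with the *GFP* sgRNAs (adjusted p = 1.67e-07), the call of that comparison. With the *ADAR* sgRNAs, 4 of 16 rose and 2 fell with IFN-β, beside 24.5% of all genes called, among them *CTSS* (2.81, adjusted p = 3.95e-09), *COG3* (0.75, adjusted p = 0.000745), *AZIN1* (0.59, adjusted p = 0.000122) and *NARF* (-0.63, adjusted p = 0.000935). These are levels of mRNA, and editing itself was not measured in the counts.

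Genes that sense double-stranded RNA and interferon-stimulated genes are given beside *ADAR* because *ADAR* shares the interferon response. With IFN-β in A549 with *GFP* sgRNAs, 10 of 10 interferon-stimulated genes rose (median 7.61, beside 0.00 over all genes), among them *MX1* at 10.85, and 9 of 10 tested sensors rose, among them *EIF2AK2* (PKR) by 2.53 ± 0.11 and *IFIH1* (MDA5) by 7.64 ± 0.19. This comparison called 5.7% of all genes. The sensor-pathway gene that fell was *MAVS* (-0.32, adjusted p = 0.0343), named after its value was seen. With *ADAR* KO and no IFN-β, 9 of 10 interferon-stimulated genes rose in NCI-H196 and 2 of 10 in NCI-H1650 by edgeR, beside 17.8% and 8.6% of all genes called. In HCC366 0 of 9 rose and in vehicle-treated A549 0 of 10, with 5 and 1 at an unadjusted p under 0.05. There 1.25% and 0.123% of all genes were called. The same shares stand beside the sensors that follow. Of the tested sensors, 6 of 10 rose and 1 (*MAVS*, -0.30) fell in NCI-H196 and 3 of 10 rose in NCI-H1650, led by *DHX58* (1.05, adjusted p = 2.13e-07), and none were called in HCC366 or vehicle-treated A549. The NCI-H196 calls rest on the deep control library: without GFP sg1, *IFIT1* was at -1.29 and *MX1* at -0.39, and DESeq2 called 11 genes in all in this line. Over the 3 dependent lines together, 3 of 10 interferon-stimulated genes and 1 of 11 sensors rose with *ADAR* KO, beside 5.3% of all genes called. In A549 with IFN-β, 1 of 10 rose with *ADAR* KO in each of these lists, beside 17% of all genes called. *EIF2AK2*, which encodes the kinase PKR, was not called in any KO comparison.

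No tested gene next to *ADAR* was called lower with *ADAR* KO. The lowest log2 difference among them in a KO comparison was -0.62, in A549 with IFN-β. Of 15 annotated genes within 250 kb of *ADAR*, 2 to 5 were tested per comparison. The call in a KO comparison was *IL6R*, an interleukin receptor, which rose in NCI-H196 (0.84 ± 0.20, adjusted p = 0.000462), where 17.8% of all genes were called. Within 250 kb of *ADARB1*, *POFUT2*, a protein fucosyltransferase, rose in NCI-H1650 (0.44, adjusted p = 0.0107), NCI-H196 (0.43, adjusted p = 0.0208) and A549 with IFN-β (0.55, adjusted p = 0.0106). It was the 1 call among 9, 9 and 11 tested there, beside 8.6%, 17.8% and 17% of all genes called. Over the 3 lines *POFUT2* (0.53, adjusted p = 0.0438) and *LINC00163* (1.62, adjusted p = 0.0453) rose, of 17 tested, beside 5.3% of all genes called. In NCI-H196, where edgeR called 2513 genes, DESeq2 called 11 in all.

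Over the 10 condition means, the genes whose log2 CPM was most like *ADAR* were *EIF2AK2* (Pearson r = 0.849), *NFATC2IP* (0.792), *PSMB9* (0.773), *LAP3* (0.766) and *SAMHD1* (0.758), among 10356 genes of a mean of at least 10 CPM. *EIF2AK2* stayed the first, at 0.842, when NCI-H196 GFP sg2 was left out. Over the 8 A549 libraries they were *WLS* (0.993), *GCNT2* (0.985), *C1RL* (0.975), *MECOM* (0.963) and *CICP14* (0.961). For *ADARB1* the 5 over condition means were *DDX10* (0.991), *POLR1B* (0.991), *ZBTB45* (0.990), *RPS18P5* (0.986) and *TIMM10B* (0.986), and without the shallow library they were 5 other genes led by *SRRM1* (0.989). Over the A549 libraries *LRCH4* (0.969), *VPS36* (0.959), *TRAPPC10* (0.918), *NUFIP1* (0.917) and *ADM2* (0.912) were most like *ADARB1*. The points share scaling and lines, and the values are descriptions.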

How the data were processed

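RNA was depleted of ribosomal RNA, made into directional libraries and sequenced as 150-base paired ends. The authors aligned the reads to hg19 with STAR and counted reads per gene with HTSeq, and the deposited files hold raw counts. The annotation release, strand setting and tool versions are not given in the sources used here. A strand-blind count could mix *ADARB2* with its antisense neighbour.

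Counts were tested with edgeR 4.0.16 in R 4.3.3 (quasi-likelihood F-test, TMM scaling, filterByExpr by condition, Benjamini-Hochberg over all genes tested, threshold 0.05). HCC366, NCI-H1650 and NCI-H196 were fitted separately, the 4 groups of A549 (8 libraries) together, and lines were compared in a fit of 16 libraries (KO effects) and of 8 (basal levels). DESeq2 1.42.0 was an alternative. The fits were tested on simulated data. Identifiers were matched to symbols for 55727 genes, which carry 97.4% of counts. Positions, exon lengths and sequences came from GENCODE mapped to GRCh37, the same assembly as hg19, and need not match the authors' release. Confidence intervals of fold changes cover the spread between sgRNAs, and counting intervals are exact Poisson intervals at 95%, which cover counting error only.

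The members and the lists of genes were chosen with earlier results of these data known. The genes named were *ADAR*, *ADARB1* and *ADARB2*, up to 4 called genes per list and comparison by size of change, called genes within 250 kb of *ADAR* and *ADARB1*, and the 5 genes most like each in log2 CPM (prior count 2). A listed gene is not reported here.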

Additional observations from a re-analysis of the deposited data

Results flagged for a closer look

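The effect of *ADAR* KO differed between vehicle- and IFN-β-treated A549 cells for 4 of the listed genes, by the interaction term of edgeR's fit. These 4 are shown because that term called them, and it called 5.05% of all genes tested. For *AZIN1* the difference was 0.72 on the log2 scale (adjusted p = 0.00373), from a KO effect of 0.10 ± 0.11 (SE) with vehicle to 0.82 ± 0.11 with IFN-β. For *COG3* it was 0.88 (adjusted p = 0.0212), from -0.05 ± 0.17 to 0.82 ± 0.16. For *ISG15* it was -1.03 (adjusted p = 0.0190), from 0.78 ± 0.24 to -0.25 ± 0.12. For *OAS1* it was -0.65 (adjusted p = 0.0166), from 0.48 ± 0.13 to -0.18 ± 0.10.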

How the results depend on the processing

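Of 676 alternative values of *ADAR* and *ADARB1*, 594 kept their direction and their side of the threshold. *ADAR* kept its sign in all 64 fits without 1 library of the KO, IFN-β and interaction comparisons, and the cause of the changes below was not tested. *ADAR* KO in HCC366 passed with GC and length offsets (-1.01) and in a fit of all 20 libraries (-0.88). In NCI-H196 *ADAR* no longer passed with DESeq2 (-0.50), the sgRNA number as a replicate block (-0.48), GC and length offsets (-1.05) or all 20 libraries (-0.43). With DESeq2 *ADAR* KO in A549 no longer passed with vehicle (-1.08) or IFN-β (-0.59). The interaction of *ADAR* passed without the low-count filter (0.50) and with a block for each sgRNA (0.50). Basal *ADARB1* no longer passed with DESeq2 for HCC366 minus NCI-H1650 (1.297) and NCI-H1650 minus A549 (-1.08), and basal *ADAR*, NCI-H1650 minus A549, passed with DESeq2 size factors (0.31). Values that changed sign, none of them called, were *ADARB1* KO in NCI-H1650 with offsets (-0.057), in NCI-H196 with DESeq2 (0.35) and the block (0.16), KO effects of *ADARB1* for HCC366 minus NCI-H196 with DESeq2 (-0.12), no filter (-0.13), the block (-0.28) and all libraries (-0.0090), for NCI-H196 minus A549 with DESeq2 (0.059) and the block (0.20), for NCI-H1650 minus NCI-H196 with the block (-0.082) and for HCC366 minus A549 without both doubted libraries (0.013), and without the filter basal *ADARB1*, HCC366 minus A549 (-0.10) and basal *ADAR*, NCI-H1650 minus NCI-H196 (-0.019). Without both doubted libraries the KO effect of *ADAR* passed for NCI-H1650 minus NCI-H196 (-0.87) and NCI-H196 minus A549 (0.66). The same pairs passed without HCC366 ADAR sg2 alone. In NCI-H196 *IFIT1* was at -0.38 with DESeq2 and *MX1* at -0.18 with offsets.

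Where a fit leaves 1 library in an arm, that library is assumed to vary like the others. Leaving out 1 library at a time gave these ranges of *ADAR*: KO in HCC366 -1.08 to -0.60 and in NCI-H196 -0.75 to -0.37, interaction 0.21 to 0.84, KO effects for HCC366 minus A549 -0.036 to 0.66, NCI-H1650 minus A549 -0.46 to 0.17, NCI-H1650 minus NCI-H196 -0.98 to -0.70 and NCI-H196 minus A549 0.34 to 0.96, sg2 against sg1 -0.033 to 0.21, and basal levels for HCC366 minus NCI-H1650 0.29 to 0.79, HCC366 minus NCI-H196 0.40 to 0.89 and NCI-H1650 minus NCI-H196 -0.086 to 0.18. Those of *ADARB1* were KO in HCC366 -0.37 to 0.049, in NCI-H1650 -0.10 to 0.17, in NCI-H196 -0.23 to 8.43 and in A549 with vehicle -0.28 to 0.13, IFN-β with *GFP* sgRNAs -0.034 to 0.13 and with *ADAR* sgRNAs 0.17 to 0.58, KO effects for HCC366 minus A549 -0.33 to 0.25, HCC366 minus NCI-H196 -9.08 to 0.18, NCI-H1650 minus A549 -0.068 to 0.35, NCI-H1650 minus NCI-H196 -8.87 to 0.34 and NCI-H196 minus A549 -0.25 to 8.99, and basal levels for HCC366 minus A549 -0.090 to 0.33, HCC366 minus NCI-H196 1.41 to 10.62 and NCI-H196 minus A549 -10.56 to -1.43. Sizes above 8 are fits without NCI-H196 GFP sg1, which leave a control with 0 reads of *ADARB1* and are no estimate. In NCI-H196 the ranges were -0.19 to 0.33 for *CDK13*, -0.37 to 0.79 for *DROSHA*, -0.47 to 0.70 for *ELAVL1*, -0.21 to 1.79 for *IFIH1*, -1.29 to 1.27 for *IFIT1*, -0.41 to 1.09 for *IRF7*, -0.39 to 1.16 for *MX1*, -0.92 to 1.81 for *OAS1* and -0.75 to 1.40 for *OAS2*.

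Between *GFP* and *ADAR* libraries the sgRNA numbers name different sgRNAs, so they do not pair these libraries by design. Same-numbered libraries of the 2 targets correlated between -0.191 and -0.0167. In A549 the same sgRNA was used with vehicle and IFN-β, and there the correlations were -0.122 (*GFP*) and 0.0163 (*ADAR*). The replicate block changed no other call of *ADAR* or *ADARB1*, and with it the genes called numbered 300 in place of 139 in HCC366, 115 in place of 2513 in NCI-H196 and 362 in place of 876 over the 3 lines. Crossed numbers, chosen after seeing the data, gave 960 called genes in HCC366, 3120 for KO in A549 with IFN-β and 1002 for IFN-β with *GFP* sgRNAs. Called genes varied widely with the settings: 9 to 6408 in HCC366, 11 to 3041 in NCI-H196, 159 to 1261 in NCI-H1650, 3 to 30 and 689 to 3581 for KO in A549 with vehicle and IFN-β, 517 to 1245 and 1774 to 4568 for IFN-β with *GFP* and *ADAR* sgRNAs, 164 to 1663 for the interaction and 328 to 3148 over the 3 lines.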
